A study of Oryctolagus cuniculus with 57 samples.

Results

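The comparison described here set 9 rabbits that had eaten feces of untreated does in the nest (FF) against 9 rabbits that had eaten feces of antibiotic-treated does (FFab), all sampled at 49 days of age. They were chosen by the labels alone and make up 18 of the 57 arrays of the series. In both groups the maternal feces had been removed from the nest and exchanged for pellets of unrelated does. The paper describes pellets collected from unrelated does and frozen, after which the unrelated does received tetracycline and tiamulin in their drinking water. FF pellets came from does without the antibiotics and FFab pellets from does given them, so that treatment goes with the time of collection. All kits were commercial hybrids. Kits of the NF group (9 rabbits at this age), used only for levels side by side, had no feces in the nest. The whole ileal wall was ground to powder and its RNA hybridized with 1 dye to a rabbit microarray, 1 array per rabbit, so that each value mixes epithelium, immune cells and muscle. In such tissue, fewer cells of a type and less RNA per cell cannot be told apart. The question put to these arrays was whether the antibiotic treatment of the donor does left a trace in the ileum of the kits 2 weeks after weaning.

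Levels are log2 of the background-subtracted signal after quantile normalization, and 8036 genes, each read from 1 probe, were tested with limma. A positive difference means a higher level in FF. Each of the 9 slides carried 1 FF and 1 FFab array of this age, so that a difference within each slide could be taken as well. Pairs of arrays correlated with r between 0.924 and 0.986, and between 69.5% and 83.5% of the probes stood well above background on each of the 18 arrays. Rabbits are called by the numbers in their labels (lap173 and so on), which stand alone in the plots. Litter and sex are not in the labels and entered no test. Rabbits were treated as independent, although pellets had been given by nest, and if littermates were sampled the errors given below are too small.

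Interferons are the alarm signals of an infected or microbe-exposed tissue. Sensors such as RIG-I (gene RIGI) and MDA5 (IFIH1) detect foreign RNA in the cytoplasm and switch on interferon genes through factors of the IRF family. Released interferon then acts through factors such as STAT2 and IRF9 on neighbouring cells, where it turns on a large set of effectors that block viral replication, tag proteins with ISG15 or help to present antigens. In the ileum the resident microbes are known to keep part of this program active in the absence of infection, and the epithelium lies next to the lymphoid follicles of the Peyer's patches, which any piece of ileum may or may not include.

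Not every array carried the marks of the distal ileum. SLC10A2, the sodium-dependent carrier that takes up bile acids there, lay between 12.51 and 13.57 in 16 of the 18 rabbits, but at 3.20 in FFab rabbit lap173 and at 2.10 in FFab rabbit lap185, where it was not well above background. FABP6, which carries bile acids inside the ileal enterocyte, was at 15.48 and 14.28 in these rabbits against 19.12 to 19.29 in the others. Conversely, FABP1, a fatty acid carrier more abundant in the upper small intestine, reached 18.61 and 18.56 against 11.73 to 15.17 elsewhere, and NPC1L1, the cholesterol importer, was at 13.12 and 13.06 against 5.12 to 9.03. The homeobox genes HOXA10, HOXD3 and HOXD10, which mark posterior body regions, were lower in these 2 rabbits than in any of the other 16, at 2.91 and 3.75 against 7.45 to 9.07 for HOXD3. FABP1, MOGAT2 and the HOX genes were picked after their values had been seen. Across all 57 arrays SLC10A2 was not well above background in 6, of which 0 were FF, 4 were FFab (2 of each age) and 2 were NF. It was above background but low in FFab rabbit lap107 (5.23) and NF rabbits lap93 (4.57) and lap113 (8.08) of day 35. In the HOX genes further arrays of day 35 were low, also in FF. FF rabbits lap82, lap88 and lap90 had HOXD3 at 4.96, 4.33 and 3.93 and NPC1L1 at 13.12, 12.90 and 13.03, with SLC10A2 at 12.14, 11.63 and 11.14. The SLC10A2 and FABP6 probes are shown because their values mark the 2 arrays of day 49 that stand apart. In the coordinates of the array design, whose build is not given in the sources used here, these probes lie at chr8:104682623-104685738 on the minus strand and at chr3:41633334-41636530 on the plus strand. The 60 bases of each probe are spread there over 3116 and 3197 bases, so that both cross at least 1 intron.
SLC10A2: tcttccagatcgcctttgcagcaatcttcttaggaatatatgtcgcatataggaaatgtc
FABP6: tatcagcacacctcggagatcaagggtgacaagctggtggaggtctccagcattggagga
Both sequences are given 5′ to 3′ as the array holds them.

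**Figure D1:**
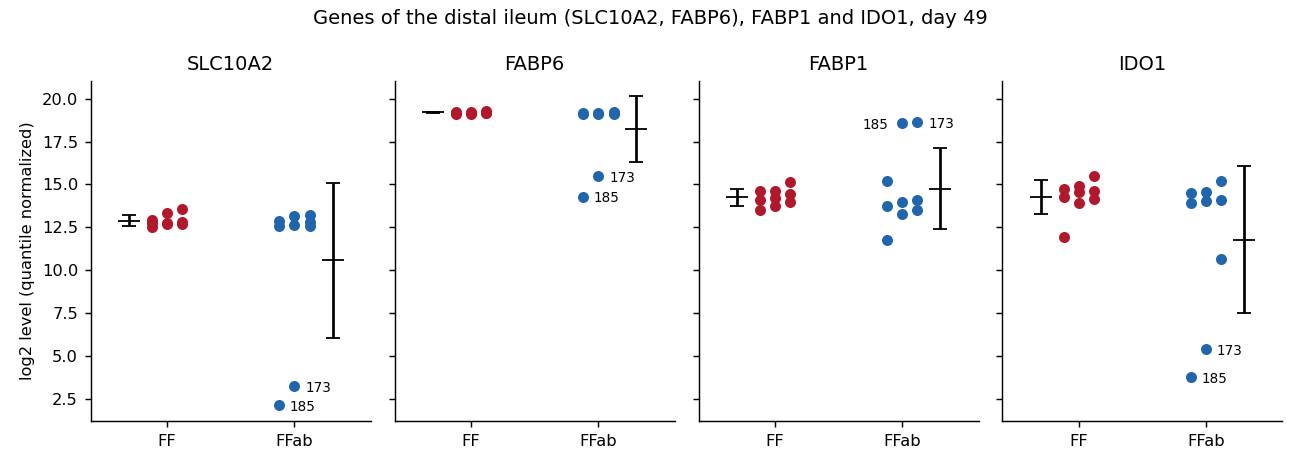
Log2 level (vertical axis, quantile normalized) of SLC10A2, FABP6, FABP1 and IDO1 in each of 9 FF rabbits (red) and 9 FFab rabbits (blue) of day 49, with the mean and SD of each group as bars. FFab rabbits lap173 and lap185 lie apart from the other 16 rabbits in each panel, low for SLC10A2, FABP6 and IDO1 and high for FABP1.

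Several differences depended on these 2 arrays. The difference of SLC10A2 was 2.33 ± 1.39 (SE) with all 18 rabbits and 0.08 ± 1.22 without rabbits lap173 and lap185. That of IDO1, the tryptophan-degrading enzyme induced by interferon, was 2.50 ± 1.36 and then 0.44 ± 1.22 (levels of 5.37 and 3.76 in these rabbits, 10.66 to 15.49 in the others). NPC1L1 moved from -1.26 to 0.19 and FABP1 from -0.48 to 0.62. Values without them are given beside several results, and the plot of list medians shows them for every list. What the low levels of the 2 rabbits come from was not tested.

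Taken gene by gene, no difference between FF and FFab at day 49 passed. limma called 0 of 8036 genes at the thresholds of the study, an adjusted p under 0.05 and a log2 difference beyond 0.5, and the smallest adjusted p was 1.0. At an unadjusted p under 0.05 stood 94 genes higher in FF (1.17% of those tested) and 94 lower (1.17%). Together they were 2.34% of the genes, fewer than that threshold lets through when nothing differs. The count of called genes was also 0 in each of the 41 other settings run, among them the authors' own table of log2 values (317 genes at an unadjusted p under 0.05), the slide as a fixed block (293) and the 18 arrays alone with the slide as a block (361). The spread of the differences was wide: 38 genes were beyond 1 on the log2 scale towards FF (0.473%) and 14 towards FFab (0.174%).

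**Figure D2:**
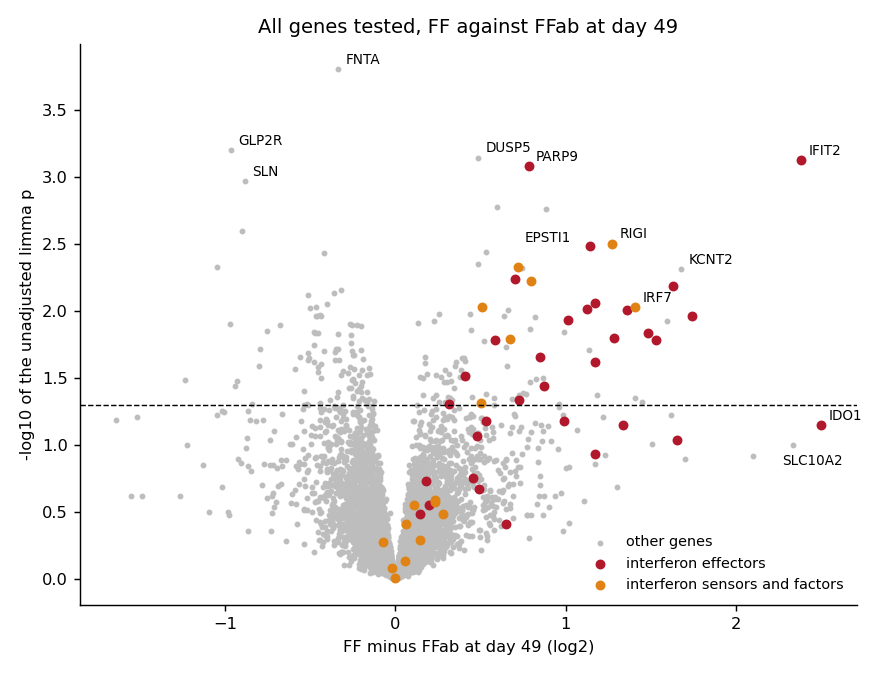
Difference between FF and FFab at day 49 on the log2 scale (horizontal axis) against the negative log10 of the unadjusted limma p (vertical axis) for 8036 genes, with the dashed line at p = 0.05. The interferon effectors (red) and the interferon sensors and factors (orange) lie almost all to the right of 0, and no gene passed after adjustment.

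The clearest pattern among the lists was that of the interferon effectors. Of 64 listed genes 33 were measured, and all 33 were higher in FF than in FFab, with a median difference of 0.99 against -0.01 over all genes tested. Of these, 20 stood at an unadjusted p under 0.05 and higher in FF (1.17% of all genes did), 0 were lower at that threshold, 16 were beyond 1 on the log2 scale, and 0 passed after adjustment. Per rabbit, the mean level of the 33 genes ran in FF from 8.53 over a median of 10.33 to 12.10, and in FFab from 8.10 over 9.37 to 10.01. The groups overlapped, since 6 of 9 FF rabbits were above the highest FFab rabbit and the other 3 were within the FFab range. FF was higher in 7 of 9 slides, and the mean difference within slides was 1.003 ± 0.992 (SD). Of the single genes, 26 of 33 were higher in FF on at least 7 of 9 slides (7.65% of all genes were) and 6 on 8 or 9 (1.43%). With the 18 arrays alone and the slide as a block, 24 of 33 stood at an unadjusted p under 0.05 and higher in FF (1.96% of the 7958 genes tested there). In that setting a gene could enter through its signal in FF alone, as IFIT2 did. In the main fit with no filter on dim probes, 20 of 35 effectors stood there (1.2% of all genes). With signal asked for on every FF or every FFab array, 18 of 31 did (1.2%). Rabbits lap173 and lap185 (8.81 and 9.98) were inside the range of the other FFab rabbits, and without them 21 of 33 stood at an unadjusted p under 0.05 (1.23% of all genes) with a median of 1.05. Some of the genes carry names from the tables of the study alone, part of which were chosen on the age change in these FF arrays. Without them 16 effectors remained, 10 of them at an unadjusted p under 0.05 and higher in FF, with a median of 0.74.

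IFIT2, which binds viral RNA and hinders its translation, had the smallest p of the list. Its level ran in FF from 3.29 over a median of 6.01 to 9.37 and in FFab from 2.30 over 3.68 to 4.39, so that 7 of 9 FF rabbits were above every FFab rabbit. The difference was 2.38 ± 0.67 (95% confidence interval 1.05 to 3.72, unadjusted p = 0.000748, adjusted p = 1.0). The signal was well above background on 7 of 9 FF arrays and on 3 of 9 FFab arrays, so that the low FFab levels and the size of the difference are uncertain. PARP9, an ADP-ribosyltransferase partner of DTX3L that strengthens interferon signalling, was bright on all arrays and higher in FF on 9 of 9 slides. It ran from 12.83 over 13.44 to 14.50 in FF and from 12.02 over 12.71 to 13.24 in FFab, a difference of 0.78 ± 0.22 (0.34 to 1.23, unadjusted p = 0.000827), and the other 2 probes of the gene gave 0.78 and 0.74, the first of them with the same sequence as the probe shown. EPSTI1, an interferon-induced gene, ran from 10.22 over 11.74 to 13.47 in FF and from 9.36 over 10.71 to 11.42 in FFab (1.14 ± 0.37, unadjusted p = 0.00326). The 60-base probes behind these values and behind RIGI and IRF9 below are shown, 5′ to 3′, since the leading interferon genes are read from them.
IFIT2: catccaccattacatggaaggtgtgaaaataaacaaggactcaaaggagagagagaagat
PARP9: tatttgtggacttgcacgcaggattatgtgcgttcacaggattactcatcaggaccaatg
EPSTI1: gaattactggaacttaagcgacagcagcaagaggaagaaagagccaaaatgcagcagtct
RIGI: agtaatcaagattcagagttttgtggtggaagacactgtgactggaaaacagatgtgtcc
IRF9: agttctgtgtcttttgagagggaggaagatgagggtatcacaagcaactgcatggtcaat
In the coordinates of the array design those of EPSTI1, RIGI and IRF9 lie on the plus strand at chr8:52170410-52170469, chr1:21009315-21009374 and chr17:44211227-44211286. For the probes of IFIT2 and PARP9 the design gives no position.

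Members of each arm of the response were among the 20. The protein tag ISG15 ran from 11.96 over 14.40 to 17.44 in FF and from 10.81 over 12.58 to 15.14 in FFab (1.53 ± 0.62), its protease USP18 differed by 1.74 ± 0.66, and the enzymes that attach it, UBA7, UBE2L6 and HERC5, by 0.88, 0.73 and 1.28. Among proteins that sense or cut viral RNA, the kinase EIF2AK2 (PKR) differed by 0.70 ± 0.24 and the oligoadenylate synthetases OAS2 and OAS3 by 1.13 ± 0.42 and 0.85. MX1, a GTPase that traps viral nucleocapsids, ran from 7.5 over 9.67 to 12.37 in FF and from 7.39 over 8.52 to 9.39 in FFab (1.17 ± 0.50). The pro-apoptotic XAF1 differed by 1.63 ± 0.58, IFIT3 and IFIT5 by 1.48 ± 0.59 and 1.02, the cytoplasmic proteins IFI44 and IFI44L by 1.36 ± 0.51 and 1.17 ± 0.43, and the RNA-binding helicase ZNFX1 by 0.58 ± 0.24. In all of these the ranges of FF and FFab overlapped.

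The 13 other members did not reach that threshold, some in spite of large differences. RSAD2 (viperin, an enzyme that makes a chain-terminating nucleotide) differed by 1.65 ± 0.96, with FF rabbits between 3.79 and 15.26, and by 1.05 without lap159. The helicase DDX60, which assists RIG-I, differed by 1.34 ± 0.73 and the GTPase GBP1 by 0.99 ± 0.53. UBD, a ubiquitin-like tag for degradation, differed by 0.65 ± 0.75 (0.26 without FFab rabbit lap201), was higher in FF on 3 of 9 slides, and ran from 11.65 to 14.55 in FF and from 9.81 to 14.67 in FFab. The peptidase LAP3 differed by 0.46 ± 0.33, and by 0.10 without rabbits lap173 and lap185.

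**Figure D3:**
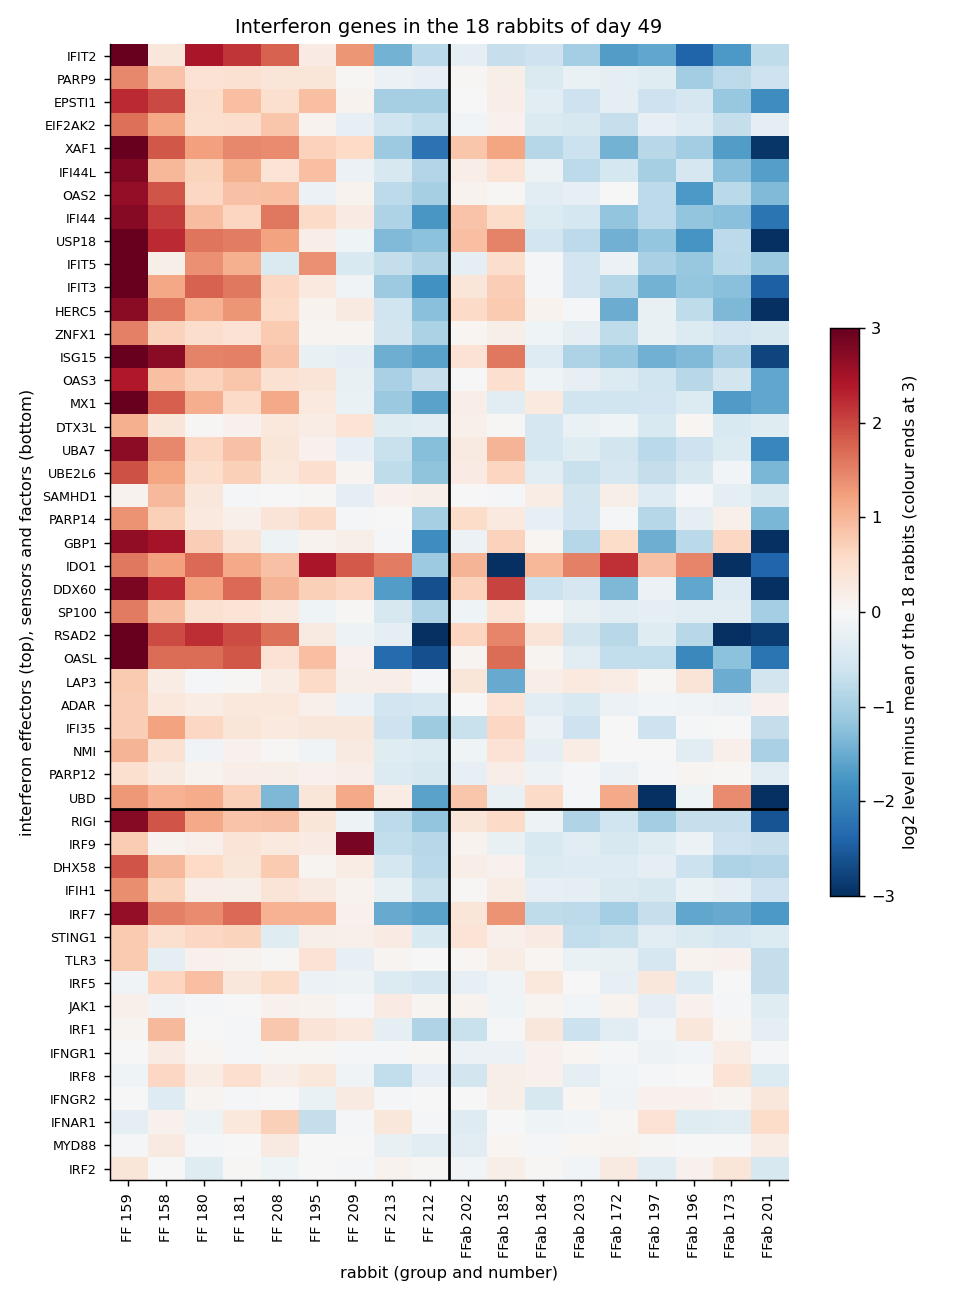
Log2 level of the interferon genes (rows; effectors above the line, sensors and factors under it) in each of the 18 rabbits of day 49 (columns, FF left and FFab right, ordered by the mean of the effectors), minus the mean of the 18 rabbits, in colours that end at 3. FF rabbits lap159 and lap158 are high and FF rabbits lap212 and lap213 low for most effectors, and FFab rabbit lap201 is the lowest.

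Sensors and factors moved less. Of 28 listed genes 17 were measured, 14 of them above 0, and 7 stood at an unadjusted p under 0.05 and higher in FF (0 lower, against 1.17% of all genes in each direction), with a median of 0.24. Without rabbits lap173 and lap185, 6 did (1.23% of all genes), with a median of 0.32. Without FF rabbits lap158 and lap159, 1 of 17 did (0.485% of all genes), with a median of 0.19. Without FF rabbits lap212 and lap213, 7 did (2.41% of all genes), with a median of 0.40. RIGI ran in FF from 10.17 over 12.22 to 14.11 and in FFab from 8.78 over 10.68 to 11.94 (1.27 ± 0.41, 0.45 to 2.10, unadjusted p = 0.00314), and its other 2 probes gave 1.28 and 1.26. The related sensors differed by less, DHX58 (LGP2) by 0.80 ± 0.28 and IFIH1 (MDA5) by 0.51 ± 0.19. IRF7, the factor that amplifies interferon production, ran from 13.67 over 16.33 to 17.92 in FF and from 13.55 over 14.50 to 16.62 in FFab (1.41 ± 0.52). IRF9, the DNA-binding part of the interferon-activated complex, differed by 0.72 ± 0.24, with FF rabbit lap209 at 11.63 and the other FF rabbits between 7.94 and 9.54, and by 0.41 without lap209. The adaptor STING1 differed by 0.51 ± 0.25. TLR3, the sensor of double-stranded RNA in endosomes, differed by 0.23 ± 0.20 (-0.17 to 0.64) and IRF1 by 0.28 ± 0.28 (-0.29 to 0.85), neither at an unadjusted p under 0.05.

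The size of the interferon pattern rested on few rabbits. FF rabbits lap158 and lap159 had the highest means of the effectors, 11.03 and 12.10, and FF rabbits lap212 and lap213 the lowest of their group, 8.53 and 9.15. FF rabbits lap180 and lap181 were at 10.65 and 10.63, and those left, lap209, lap195 and lap208, at 9.95, 10.19 and 10.33. Without rabbit lap159 alone 9 of 33 effectors stood at an unadjusted p under 0.05 and higher in FF (median difference 0.69, and 0.908% of all genes did), and without lap158 and lap159 together 2 of 33 did (median 0.57, 0.485% of all genes). Without lap212 and lap213, on the other hand, 26 of 33 did, with a median of 1.39 (2.41% of all genes). Leaving out FFab rabbit lap201, the lowest of all 18 at 8.10, gave 15 of 33 (1.03% of all genes). The share over all genes thus moved with the count of effectors. FFab rabbits lap202 and lap203 were at 10.01, the highest of FFab, and 9.40. The labels do not say whether rabbits of neighbouring numbers came from 1 nest. All 33 differences were above 0 with all 18 rabbits, but they are measures of the same rabbits and not independent of each other.

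The same rabbits were high or low in lists of immune cells and signals. FFab rabbit lap201 had the lowest mean of the 18 for cytokines and chemokines (7.17), T cells (6.33) and B cells (6.26), and the highest for smooth muscle (10.35). FF rabbits lap212 and lap213 were the lowest of FF for cytokines (7.39 and 7.61), T cells (6.70 and 6.91) and B cells (6.50 and 6.60), and the highest of FF for smooth muscle (10.02 and 9.84). Rabbit lap159 was not high in lymphocyte genes, with a T cell mean of 7.01 and a B cell mean of 7.22. Rabbit lap158, at 7.54 and 8.29, was above the FF medians of 7.24 and 8.16 in both. The part of these cells in the interferon pattern was not tested.

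**Figure D4:**
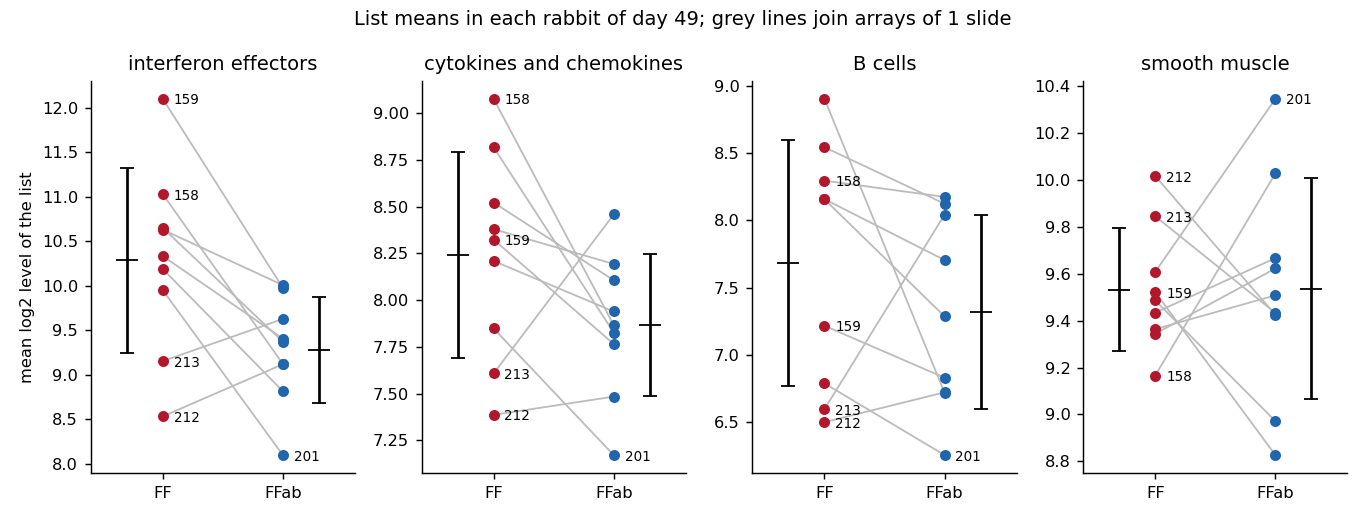
Mean log2 level of the genes of 4 lists (vertical axes) in each FF rabbit (red) and FFab rabbit (blue) of day 49, with arrays of 1 slide joined by a grey line and the mean and SD of each group as bars. FF rabbits lap158 and lap159 lead the interferon effectors, while FFab rabbit lap201 is lowest in the 3 immune lists and highest in smooth muscle.

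Class I antigen presentation, which displays peptides from the cytoplasm to cytotoxic T cells, differed in the same direction by little. All 12 measured genes of 18 listed were above 0, with a median of 0.18, and 1 stood at an unadjusted p under 0.05 and higher in FF (1.17% of all genes), the proteasome activator PSME2 (0.29 ± 0.14). The peptide transporter TAP1 ran from 9.81 over 11.49 to 12.14 in FF and from 9.57 over 10.54 to 11.48 in FFab (0.57 ± 0.33), the immunoproteasome subunit PSMB9 differed by 0.44 ± 0.33 (0.23 without FFab rabbit lap201), and the class I heavy chain RLA-A3 by 0.45 ± 0.25. Class I heavy chains are near-identical copies, and what each probe reads among them is uncertain. Without rabbits lap173 and lap185, 3 of the 12 stood at that threshold (1.23% of all genes), TAP1 among them with 0.79 ± 0.35, and the median was 0.30.

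Of the cytokines and chemokines, 38 of 75 were measured, with a median of 0.28 and 31 above 0. Those at an unadjusted p under 0.05 were 2, both higher in FF (1.17% of all genes were). CCL4, which attracts T cells and monocytes, ran from 9.04 over 9.78 to 11.55 in FF and from 8.93 over 9.32 to 10.16 in FFab (0.68 ± 0.33). IFNG, the interferon of T and NK cells, ran from 3.67 over 4.91 to 7.81 and from 2.57 over 4.67 to 5.04 (0.96 ± 0.48, or 0.63 without lap158), with FF rabbit lap158 the highest and the signal well above background on 7 FF and 5 FFab arrays. The interferon-induced chemokines CXCL10 and CXCL11 differed by 1.07 ± 0.59 and 1.23 ± 0.78, and CCL5 by 0.96 ± 0.58. IL18BP, which neutralizes IL18, differed by 0.43 ± 0.23 (0.22 without lap158), while IL15 (0.15 ± 0.24) and IL18 (-0.05 ± 0.15) had intervals of -0.34 to 0.64 and -0.35 to 0.24. Among 27 of 50 receptors measured, 0 stood at that threshold in limma, and their median was 0.03.

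Lymphocyte genes overlapped widely between the groups. Of 23 T cell genes (34 listed), 1 stood at an unadjusted p under 0.05 and higher in FF (1.17% of all genes), the adaptor SH2D1A (0.53 ± 0.25). The median was 0.15. Without rabbits lap173 and lap185, 2 genes stood there (1.23% of all genes) and the median was 0.26. The adhesion receptor CD2 differed by 0.41 ± 0.25, and the CD3 chains were not among the genes tested. Of 9 measured cytotoxic genes of 28 listed, 0 stood there (median 0.04, or 0.28 without rabbits lap173 and lap185, whose means of 9.05 and 9.19 were the highest of FFab), and the granzyme GZMH ran from 10.93 over 12.25 to 13.61 in FF and from 9.73 over 11.25 to 13.47 in FFab (0.85 ± 0.65). Of 16 B cell genes (30 listed), 0 did, with a median of 0.26. MS4A1 (CD20), a surface marker of B cells, ran from 1.88 over 7.23 to 8.73 in FF and from 2.26 over 4.37 to 7.54 in FFab, a difference of 1.30 ± 1.01 with an interval of -0.73 to 3.33, or 0.62 without rabbits lap173 and lap185. Its probes disagreed, since the other 2 gave 1.04 and, for the brightest, 0.10. The B cell receptor subunit CD79B differed by 0.58 ± 0.72 (0.27 without FFab rabbit lap201). In the list of plasma cells and IgA secretion (11 of 22 measured, 0 at the threshold, median 0.10, or 0.26 without these 2 rabbits), the IgA transporter PIGR differed by -0.01 ± 0.23 and the IgA-promoting factor TNFSF13 by -0.17 ± 0.20. Among 16 of 32 macrophage and dendritic cell genes measured, 0 stood at the threshold in limma (median 0.07).

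Antimicrobial proteins had a median of 0.33 over 14 of 31 genes, or 0.22 without rabbits lap173 and lap185. With all 18 rabbits, 1 stood at an unadjusted p under 0.05 and higher in FF (1.17% of all genes). RNASE4, a secreted ribonuclease, ran from 9.70 over 10.03 to 10.91 in FF and from 9.37 over 9.53 to 10.18 in FFab (0.41 ± 0.18). REG3G, a lectin that keeps Gram-positive bacteria off the epithelium, ran from 13.71 over 17.38 to 18.53 in FF and from 13.74 over 15.30 to 18.30 in FFab, which gave 0.94 ± 0.79 (-0.64 to 2.51), or 0.56 without rabbits lap173 and lap185. The lysozyme LYG2 differed by 0.33 ± 0.52 (0.09 without these rabbits), and CAMP, the cathelicidin of neutrophils and epithelium, by -0.74 ± 0.49 (-0.33 without them).

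Muscle genes did not share 1 direction. Of 25 measured genes of striated muscle (52 listed), 1 was higher and 2 lower in FF at an unadjusted p under 0.05 (1.17% of all genes in each direction), with a median of -0.07. SLN (sarcolipin), an inhibitor of the calcium pump of muscle, was lower in FF on 9 of 9 slides. It ran from 4.90 over 5.31 to 6.13 in FF and from 5.60 over 6.26 to 6.75 in FFab (-0.88 ± 0.25, interval -1.39 to -0.37, unadjusted p = 0.00108), and its other 3 probes gave -0.45, -1.13 and -0.37. LDB3, a protein of the Z disc, differed by -0.79 ± 0.33, but its other probe gave 0.13, and the myosin-binding MYBPC1 by 0.64 ± 0.24. The troponin TNNC1 (0.30 ± 0.29) and the actinin ACTN2 (0.02 ± 0.42, interval -0.82 to 0.86) were at no such threshold. All of these but ACTN2 were dim genes, with levels under 8. Smooth muscle, the main muscle of the gut wall, had a median of -0.02 over 32 of 45 genes, 0 of them at an unadjusted p under 0.05, with ACTG2 at -0.02 ± 0.31 and MYH11 at -0.04 ± 0.24. Rabbits lap173 and lap185 had the lowest smooth muscle means of the 18 (8.97 and 8.83), and without them the median was -0.19, 1 of the 32 genes was lower in FF at an unadjusted p under 0.05 (1.44% of all genes) and MYH11 differed by -0.36 ± 0.23.

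The medians of the epithelial lists lay near 0. Enterocyte brush border genes had a median of -0.04 over 34 of 55 genes, none of them at an unadjusted p under 0.05 in limma, and their mean per rabbit ran from 13.39 to 13.73 in FF and from 13.33 to 14.10 in FFab. Sucrase-isomaltase SI differed by -0.14 ± 0.25 and the keratin KRT18 by -0.10 ± 0.16. Mucins and goblet cell genes had a median of -0.01 (13 of 34 measured, 0 at the threshold), with MUC13 at 0.28 ± 0.20 (0.16 without rabbits lap173 and lap185) and MUC12 at 0.12 ± 0.30. Of 37 crypt proliferation genes (52 listed), 1 stood at the threshold and higher in FF (1.17% of all genes), the replication helicase subunit MCM3 (0.72 ± 0.35). Their median was 0.08, with 31 of the 37 above 0. Of 15 measured gut hormone genes, 0 stood at the threshold, with a median of 0.00.

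Rabbits lap173 and lap185 stood apart in the mean of the fat absorption genes, but not in that of the list of bile acids and cholesterol. The latter had a median of -0.08 over 30 of 43 genes, none of them at an unadjusted p under 0.05 in limma. Its means in rabbits lap173 and lap185 (9.34 and 9.45) lay within the 9.08 to 9.58 of the other 16. Its widest differences, 2.33 (SLC10A2) and -1.26 (NPC1L1), went to 0.08 and 0.19 without these 2 rabbits. FGF19, the ileal hormone that restrains bile acid synthesis in the liver, ran from 5.39 over 5.81 to 6.16 in FF and from 5.35 over 6.09 to 6.84 in FFab (-0.25 ± 0.57, interval -1.39 to 0.89), and the bile acid-responsive repressor NR0B2 differed by -0.11 ± 0.59. Fat absorption genes had a median of -0.15 over 29 of 38 genes. Rabbits lap173 and lap185 had means of 11.46 and 11.47 there, against 10.13 to 10.56 in the other 16, and without them the median was 0.07. MOGAT2, which rebuilds triglycerides in the enterocyte, went from -0.98 ± 0.97 to 0.04 ± 0.98. For sugar digestion and transport (16 of 25 genes) the median went from -0.12 to 0.01. Rabbits lap173 and lap185 had means of 11.35 and 11.37 there, against 10.55 to 10.93 in the other 16. The water channel AQP4, which stood well above background on 9 FF and 6 FFab arrays, ran from 4.66 over 5.70 to 6.40 in FF and from 3.04 over 5.17 to 6.62 in FFab (0.79 ± 0.36, unadjusted p = 0.0337), but its other, brighter probe gave 0.19.

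**Figure D5:**
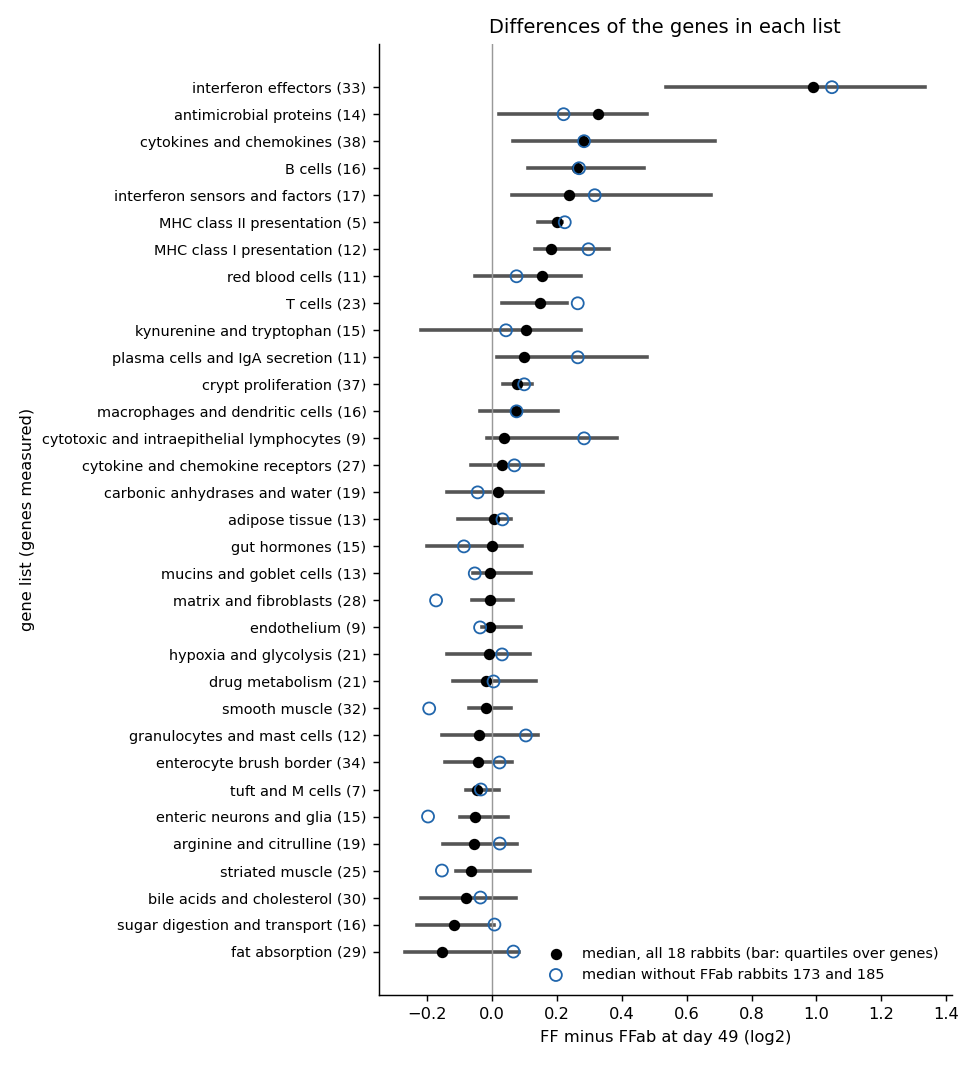
Median difference between FF and FFab at day 49 over the genes of each list on the log2 scale, with all 18 rabbits (black, bars give the quartiles over genes) and without FFab rabbits lap173 and lap185 (open circles), and in brackets the genes measured. The interferon effectors lie near 1 either way, and the other 32 lists lie between -0.15 and 0.33 with all 18 rabbits.

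Outside the lists, the smallest p of the comparison belonged to FNTA, the subunit shared by 2 enzymes that attach prenyl lipids to proteins. It ran from 11.21 over 11.36 to 11.62 in FF and from 11.51 over 11.79 to 11.95 in FFab and was lower in FF on 8 of 9 slides (-0.34 ± 0.08, interval -0.50 to -0.17, unadjusted p = 0.000158, adjusted p = 1.0), and its other 2 probes gave -0.28 and -0.24. GLP2R, the receptor of the intestinal growth hormone GLP-2, differed by -0.96 ± 0.26, with FFab rabbit lap196 at 7.98 and all others between 4.06 and 6.19. ASL, which releases arginine in the urea cycle, was lower in FF on 9 of 9 slides and nearly without overlap, from 10.06 over 10.25 to 10.44 in FF against 10.44 over 10.62 to 10.81 in FFab (-0.40 ± 0.15, unadjusted p = 0.00879). MOCS1, of molybdenum cofactor synthesis, was lower on 9 of 9 slides as well (-0.44 ± 0.17). The sulfatase ARSA (-0.50 ± 0.19) and the peroxisomal transporter ABCD3 (-0.47 ± 0.18) were lower on 8 of 9 slides. Slide counts of genes chosen by their p, here and elsewhere, come from the same arrays and are no separate support. Of all genes 1.43% were higher in FF on 8 or 9 slides, and the share lower was not counted.

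The other named genes with the smallest p among those lower in FF were LRP2BP (-0.90 ± 0.28), TMEM256 (-0.42 ± 0.14), ATRNL1 (-1.05 ± 0.35, with FFab rabbits lap203, lap173 and lap172 at 8.90, 7.83 and 6.99 and the other FFab rabbits at 4.42 to 5.72, and -0.68 without lap203), TMEM79 (-0.32 ± 0.11), VAT1 (-0.36 ± 0.13), PGAP1 (-0.51 ± 0.18), NCAM2 (-0.46 ± 0.17) and ANO10 (-0.46 ± 0.17, or -0.21 without rabbits lap173 and lap185, at 8.44 and 7.99). Among those higher in FF, besides members of the 2 interferon lists, was the MAP kinase phosphatase DUSP5. It was higher on 8 of 9 slides (5.99 over 6.27 to 6.84 against 5.49 over 5.89 to 6.07, 0.49 ± 0.14, unadjusted p = 0.000716). The pyrimidine nucleotidase NT5C3A differed by 0.60 ± 0.18. Whether the genes outside the lists go with the interferon pattern was not tested. The deubiquitinase USP25 was higher in FF on 9 of 9 slides (0.48 ± 0.16), with FF rabbit lap159 at 12.08 and the other FF rabbits between 10.59 and 11.11, and its other 2 probes gave 0.46 and 0.49. KERA, a matrix proteoglycan, differed by 0.89 ± 0.27, but its other probe gave -0.07. SEMA4F differed by 0.74 ± 0.25. The potassium channel KCNT2 differed by 1.68 ± 0.57 with signal well above background on 5 FF arrays and 1 FFab array, so that its size is uncertain. PECAM1, of the endothelium, differed by 0.26 ± 0.10, KCNA10, another potassium channel, by 0.84 ± 0.51 (0.17 by its other, brighter probe), and the membrane protein LSMEM1 by 0.13 ± 0.48 (-0.41 to 0.16 by its other 4 probes).

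At day 35 the interferon pattern was not there in this form, with 14 of the 33 effectors higher in FF than in FFab (10 rabbits each), 19 lower and 0 in either direction at an unadjusted p under 0.05 in limma (3% of all genes were higher and 3.16% lower there). The median difference went from -0.12 at day 35 to 0.99 at day 49. limma's test of the change of the difference between the ages called 0 of 8036 genes. At an unadjusted p under 0.05 stood 230 of them (2.86%), of which 118 leaned towards FF (1.47%) and the rest towards FFab (1.39%). Among the effectors 11 of 33 stood there, all towards FF, with a median change of 1.13 against -0.01 over all genes. Some of the 33 carry names only from the study's tables, part of which were chosen on the age change in FF. That change is part of this test, so their lean towards FF is not independent of the choice. For the 16 effectors left without them, the median difference was -0.04 at day 35 and 0.74 at day 49. PARP9 changed by 0.86 ± 0.30 (unadjusted p = 0.00681). DDX60 changed by 2.29 ± 1.0 and XAF1 by 2.02 ± 0.80, and the study lists both among the genes most raised with age in FF. The smallest adjusted p of this test was 1.0. SLN went the other way, from 0.25 ± 0.24 at day 35 to -0.88 ± 0.25 (change -1.13 ± 0.35, unadjusted p = 0.00221). FGF19, the 1 gene called between FF and FFab at day 35 (0.0124% of those tested, 2.67 ± 0.54, adjusted p = 0.0324), was at -0.25 ± 0.57 at day 49 (change -2.91 ± 0.78, unadjusted p = 0.00048). At day 35, SLC10A2 was not well above background in 2 of 10 FFab and 0 of 10 FF rabbits, and low HOX levels occurred in both groups. Neither the difference at day 35 nor the change was fitted without such rabbits, so how far these values rest on them was not tested.

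The NF rabbits of day 49 were fitted together with these groups, and since comparisons with them share the FF or the FFab rabbits, their levels are only set beside the others. The mean of the effectors was 9.95 ± 0.85 (SD) in 9 NF rabbits, 10.28 ± 1.04 in FF and 9.28 ± 0.59 in FFab. For 30 of the 33 genes the NF mean lay between those of FFab and FF, and for the other 3 it lay above that of FF. IFIT2 averaged 5.89 in FF, 5.07 in NF and 3.50 in FFab, and PARP9 13.46, 13.16 and 12.68. SLN averaged 5.39 in FF, 5.58 in NF and 6.27 in FFab.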

How the data were processed

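The authors deposited, for each array, a Feature Extraction file of spot intensity values, and normalized log2 values of 33284 probes for the whole series. The submitters' processing notes name Feature Extraction 10.7.3.1, the file headers 10.10.1.1. From the authors' background-subtracted processed intensity, the spots of a probe were averaged (62976 spots, 1319 controls, 42089 probes), set to log2 and quantile normalized. Probes entered if 50% or more of their spots stood well above background on 75% or more of the arrays of any group (31722 probes). The probe of median level stood for its gene (8036 genes, 7729 with a symbol, 101 of these named only through lists in the supplement of the study). limma fitted 6 group means over the 56 arrays that the study kept, leaving out 1 NF rabbit of day 35, and a contrast gave FF minus FFab at day 49. Calls needed a Benjamini-Hochberg adjusted p below 0.05 and a log2 difference over 0.5. No gene was saturated on any of the 18 arrays. Errors of differences are standard errors from the spread of all arrays fitted, and intervals cover 95%. The number of arrays limits the precision.

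The named genes are the 15 with the smallest p in each direction, members of the lists described, and genes named in the study or known from earlier results of these data. Members and lists were chosen with earlier results of these data known. KRT20 was not measured, and some genes are not reported here. The steps were tested on simulated data. Levels are set against each other only within a probe. Software: R 4.3.3, limma 3.58.1 and statmod 1.5.0. Alternatives changed the normalization, background, filter, probe, samples, slide and weights, and left out rabbits. The removal of rabbits lap173 and lap185 and of runs of rabbit numbers was added after seeing the data. qPCR, sequencing and immunoglobulin assays were not analysed here.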

Additional observations from a re-analysis of the deposited data

Results flagged for a closer look

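Within a group of 9 rabbits, a single level was looked at again when its gap to the nearest rabbit took more than 0.493 of the range of the group. Of 264 groups of values (99 named genes and 33 list means, in FF and in FFab) 11 met this, and chance alone flags about 1 in 20.

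FF rabbit lap158 was the highest of its group for IFNG (7.81, next 5.65, gap 0.522 of the range) and the lowest for IL18 (11.53, next 11.95, 0.497). FF rabbit lap209 was the highest for IRF9 (11.63, next 9.54, 0.567), a height not shared by the effectors (mean 9.95). FF rabbit lap159 was the highest for USP25 (12.08, next 11.11, 0.65), and FF rabbit lap180 for KERA (8.38, next 6.81, 0.561). FF rabbit lap212 was the lowest for IDO1 (11.96, next 13.92, 0.557) and the highest for the mean of striated muscle (7.80, next 7.38, 0.525).

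FFab rabbit lap201 was the lowest of its group for PSMB9 (13.92, next 15.42, 0.639) and the highest for KRT18 (11.31, next 10.69, 0.534). FFab rabbit lap197 was the highest for ACTN2 (12.02, next 10.86, 0.658), and FFab rabbit lap196 for GLP2R (7.98, next 6.19, 0.55). The low levels of SLC10A2, FABP6 and IDO1 in FFab rabbits lap173 and lap185 did not meet the criterion, since each of the 2 lies near the other.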

How the results depend on the processing

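The count of called genes was 0 in limma in all 42 settings, and the direction of 81 of 99 named genes was the same in all of them. Genes at an unadjusted p under 0.05 numbered 317 in the authors' table, 293 with the slide as a fixed block, 361 with the 18 arrays alone and the slide as a block, and from 97 (without FF rabbits lap158 and lap159) to 311 (without lap212 and lap213) when rabbits were left out, against 94 higher and 94 lower with all. The change between ages gave 366 in the authors' table against 230. The mean difference of each of the 33 lists moved by less than 1 SD between rabbits in every setting. That limit is wide and says little about stability. For the effectors the SD was 1.04 in FF and 0.59 in FFab. Their mean difference ran from 0.64 (without lap158 and lap159) to 1.42 (without lap212 and lap213). In these 2 settings, 2 and 26 of 33 effectors stood at an unadjusted p under 0.05 in limma and higher in FF.

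The other 18 named genes, mostly with differences near 0, turned at least once. TNNC1 was at -0.15 with no filter on dim probes. With the probe of highest mean PIGR was at 0.021, LDB3 at 0.13 and KERA at -0.074. In the 18 arrays alone, with or without the slide, PIGR was at 0.0022 and LSMEM1 at -0.40, and with array weights ACTN2 was at -0.0050 and NR0B2 at 0.11. Without lap173 and lap185, IL18 was at 0.045, PIGR at 0.11, ACTN2 at -0.12, NR0B2 at 0.48, NPC1L1 at 0.19, FABP1 at 0.62, MOGAT2 at 0.039, LSMEM1 at -0.074 and HOXD3 at -0.24. With rabbits left out in turn or in runs of neighbouring numbers, IL15 ran from -0.034 to 0.23, IL18 from -0.18 to 0.016, PIGR from -0.19 to 0.14, ACTN2 from -0.22 to 0.18, ACTG2 from -0.20 to 0.19, MYH11 from -0.29 to 0.24, NR0B2 from -0.66 to 0.17, FABP1 from -1.08 to 0.0077, KRT18 from -0.18 to 0.0097, MUC12 from -0.044 to 0.26, LSMEM1 from -0.14 to 0.29 and TNFSF13 from -0.32 to 0.0087. The cause of these turns was not tested. Dim genes (SLN, KCNT2, IFIT2 in FFab) are limited by their signal over background.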
